A study of Mus musculus with 10 samples.

Results

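Injury of the kidney tubule is commonly read from a small set of genes whose expression is known to increase when tubule cells are damaged. The 10 described here are Havcr1, Lcn2, Spp1, Clu, Krt8, Krt18, Vcam1, Tnfrsf12a, Cdkn1a and Sox9, which were taken by gene name from a deposited expression table of 55952 genes. All 10 names were found, each once, and 9 of the 10 were expressed above the level needed for testing. Kidneys of C57BL/6 mice, an inbred laboratory strain, were compared between animals kept for 30 days at 4200 m (hypoxia, 5 libraries) and at 400 m (control, 5 libraries). The study compared the groups to learn how the kidney responds to high altitude, and its design text reports tissue damage in hypoxic kidneys. No drug, transgene or other treatment is given for either group, and age and sex are not given. Altitude and site of housing cannot be told apart.

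A damaged proximal tubule cell loses its transport functions, flattens, and turns on surface receptors, secreted glycoproteins and the keratins of simple epithelia. In mouse and human kidneys a share of such cells recovers, while others stay in a state marked by adhesion molecules such as VCAM1. The genes fall into 5 pairs by role: the clinical injury markers Havcr1 and Lcn2, the secreted glycoproteins Spp1 and Clu, the partner keratins Krt8 and Krt18, the surface receptors Vcam1 and Tnfrsf12a, and the nuclear regulators Cdkn1a and Sox9.

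Transcripts of whole kidney tissue were sequenced in bulk, and the authors deposited FPKM, fragments scaled to gene length and library size, so that levels can be compared between genes. The libraries held 16561672 to 17845464 reads assigned to genes, recovered from the FPKM steps. The library sizes implied by these steps differed from those totals. The samples are labelled kidney, although the extraction text speaks of retinas, and 14 genes of the mature proximal tubule summed to 2253 to 4645 FPKM per library. Hypoxia replicates 4 and 5 stood apart. Replicate 5 held 356 FPKM of summed B cell markers, against 2.12 to 2.46 FPKM in the other hypoxia libraries and 1.15 to 1.87 FPKM in the controls. Replicate 4 held 1060.0 FPKM of summed adrenal markers, against 1.49 to 1.68 FPKM in hypoxia replicates 1 to 3 and 0.920 to 1.55 FPKM in the controls. Results are therefore given with and without these libraries. In bulk tissue, fewer cells of a type and less RNA per cell cannot be told apart.

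Most injury markers passed the test in neither direction. With limma and Benjamini-Hochberg adjustment over 15264 genes, 1 of the 9 tested markers was higher in hypoxia (Spp1) and 1 was lower (Tnfrsf12a) at an adjusted p of at most 0.05, while 3.66% of all tested genes were higher and 7.79% lower (11.5% in either direction). Without hypoxia replicates 4 and 5, 0 of 9 were higher and 2 were lower, Tnfrsf12a and Clu. The shares of all 14724 genes were 4.53% and 7.75% (12.3% in either direction). At an unadjusted limma p under 0.05 in that fit, Spp1 and Cdkn1a passed as well, as did 4181 of the 14724 genes. With all libraries Spp1, Clu, Krt18, Tnfrsf12a and Cdkn1a passed at that level, all but Spp1 lower. So did 4451 of the 15264 genes. With array quality weights 1 marker was higher and 3 lower, against 8.58% and 12.7% of all genes (21.3% in either direction), and with limma voom on the recovered reads 1 was higher and 1 lower, against 5.12% and 6.07% (11.2%). No test of these counts against their backgrounds was made. The median log2 fold change of the 9 markers was -0.50 with all libraries and -0.50 without the pair, and that of all tested genes was 0.012 and -0.00046. The set was chosen with earlier results of these data known, so these counts and medians are descriptions.

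**Figure D1:**
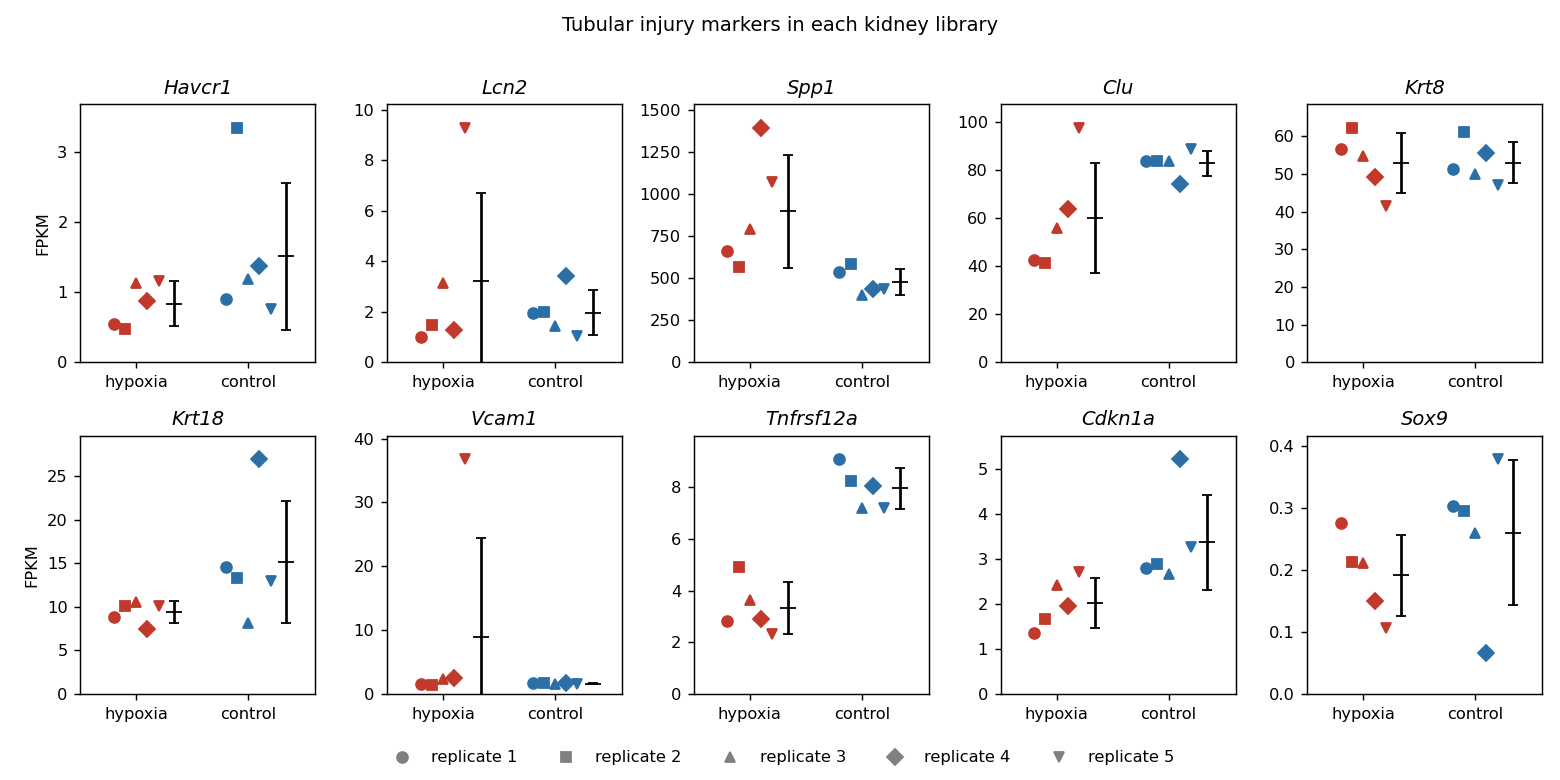
FPKM of each injury marker (y axes, linear, starting at 0) in the 5 hypoxia libraries (red) and the 5 control libraries (blue); the symbol gives the replicate number and black bars the mean and SD of each group, cut at 0 where the SD exceeds the mean. Tnfrsf12a is lower in all 5 hypoxia libraries, Spp1 is above the highest control in 4 of 5, and Vcam1 stands apart in hypoxia replicate 5 at 36.7 FPKM.

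Levels ranged widely among the markers. Spp1 was the most abundant, at a mean of 689 FPKM over the 10 libraries, which placed it at rank 32 of all genes in the table. Clu followed at 71.5 FPKM and Krt8 at 52.98 FPKM, well above Krt18 at 12.3 FPKM. Tnfrsf12a averaged 5.64 FPKM and Vcam1 5.25 FPKM, the second of which rested on hypoxia replicate 5. Vcam1 averaged 8.88 FPKM in hypoxia and 1.63 FPKM in controls, and among controls it lay below Cdkn1a at 3.37 FPKM and Lcn2 at 1.98 FPKM. Over all libraries Cdkn1a at 2.70 FPKM and Lcn2 at 2.61 FPKM overlapped. Havcr1 at 1.18 FPKM and Sox9 at 0.226 FPKM were the lowest.

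Havcr1 encodes kidney injury molecule 1, a receptor with which damaged proximal tubule cells take up dying neighbours. It was at 0.543, 0.476, 1.14, 0.878 and 1.16 FPKM in hypoxia replicates 1 to 5, against 0.904, 3.35, 1.18, 1.38 and 0.755 FPKM in control replicates 1 to 5. The groups overlapped, and the highest value of all was a control, replicate 2, at 127 reads against at most 58 reads in the other controls. The log2 fold change was -0.50 (SE 0.297, limma adjusted p = 0.285), with a 95% interval from -1.15 to 0.16, so that an increase above 0.16 on this scale lay outside the interval. Leaving out control replicate 2 alone moved the log2 fold change to -0.23 (adjusted p = 0.519). The gene lies on mouse chromosome 11 from 46735080 to 46779578 (ENSMUSG00000040405, plus strand).

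Lcn2 encodes lipocalin 2, an iron-siderophore carrier secreted by injured distal tubules and also stored in neutrophil granules. Its values in hypoxia replicates 1 to 5 were 1.001, 1.49, 3.14, 1.29 and 9.29 FPKM, and in control replicates 1 to 5 they were 1.96, 1.997, 1.43, 3.44 and 1.06 FPKM. Apart from hypoxia replicate 5, the hypoxia values lay within or below the range of the controls. The log2 fold change was 0.28 with all libraries (SE 0.475, limma adjusted p = 0.722) and -0.090 without hypoxia replicates 4 and 5 (adjusted p = 0.891). The 10 neutrophil markers summed to 339 FPKM in hypoxia replicate 5 and 17.3 FPKM in replicate 4, to 3.68 to 36.7 FPKM in hypoxia replicates 1 to 3, and to 0.534 to 2.95 FPKM in the controls. Elane, Mpo and Ly6g were at 0 in all controls, and Elane and Mpo in hypoxia replicates 1 to 3. S100a8, a neutrophil calcium-binding protein, was at 24.4 ± 43.2 FPKM in hypoxia and 0.313 ± 0.288 FPKM in controls (SD, n = 5 each; log2 fold change 3.37, limma adjusted p = 0.0419). It lost its call in 7 of the 10 fits without 1 library, with an adjusted p of up to 0.0949 (without control replicate 1). Without hypoxia replicates 4 and 5 S100a8 kept its call (log2 fold change 2.34, adjusted p = 0.0395). Its lowest hypoxia library, at 1.56 FPKM, lay above its highest control, at 0.702 FPKM. The groups did not overlap for 14.2% of all tested genes. The part of neutrophils in the Lcn2 values was not tested.

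Spp1 encodes osteopontin, a secreted phosphoprotein that binds integrins and CD44 and is made by distal nephron segments, by injured tubule cells and by macrophages. It was at 662, 568, 795, 1393 and 1069 FPKM in hypoxia replicates 1 to 5, against 539.5, 584, 403, 438 and 436 FPKM in control replicates 1 to 5. The 2 highest libraries were hypoxia replicates 4 and 5, and hypoxia replicate 2 lay below the highest control. Spp1 rose, with a log2 difference of 0.84 (SE 0.235, adjusted p = 0.0440 by limma), a fold of 1.79 on the FPKM + 0.5 scale. Without hypoxia replicates 4 and 5 it was 0.49 (SE 0.150, adjusted p = 0.0639), a fold of 1.41 that missed the threshold. The call was lost in 8 of the 10 fits without 1 library, with an adjusted p of up to 0.102 (without control replicate 3). The 9 macrophage markers summed to 172 and 1059 FPKM in hypoxia replicates 4 and 5 and to 70.6 to 104 FPKM in replicates 1 to 3, against 64.4 to 88.0 FPKM in the controls; none was at 0 throughout either group, and their part in the Spp1 values was not tested.

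The promoters of Spp1 and Tnfrsf12a are shown because these genes were the 2 that passed the threshold with all libraries. RefSeq windows of 250 bases before to 50 after a start site (GRCm38.p6) were given for 7 of the 10 markers, and the sequences are written 5′ to 3′ on the gene's own strand. The window of Spp1 is chr5:104434861-104435160 on the plus strand and that of Tnfrsf12a chr17:23677400-23677699 on the minus strand. Capitals mark matches to the NF-κB letters, GGG and CC with any 5 bases between them, on either strand; the window shown for Spp1 is the first of 2 in the table.
Spp1: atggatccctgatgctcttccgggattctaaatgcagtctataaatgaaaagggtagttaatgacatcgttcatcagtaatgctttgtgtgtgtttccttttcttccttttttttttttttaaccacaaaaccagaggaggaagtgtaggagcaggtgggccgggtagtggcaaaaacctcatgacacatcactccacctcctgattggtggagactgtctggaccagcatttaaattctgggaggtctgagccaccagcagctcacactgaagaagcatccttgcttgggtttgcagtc
Tnfrsf12a: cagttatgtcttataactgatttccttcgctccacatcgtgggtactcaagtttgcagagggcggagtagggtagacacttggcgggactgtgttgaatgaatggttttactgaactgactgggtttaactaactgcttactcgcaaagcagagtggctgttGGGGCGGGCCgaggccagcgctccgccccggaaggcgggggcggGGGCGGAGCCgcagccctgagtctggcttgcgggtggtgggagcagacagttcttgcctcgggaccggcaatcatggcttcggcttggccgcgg
Tnfrsf12a had 2 such matches, beginning 88 and 44 bases before the start, and Spp1 had none. The NF-κB letters occur in 50.8% of the 32851 promoter windows of the table, so their presence is common. Neither window held the AP-1 letters TGANTCA, the heat shock letters GAANNTTC, the E-box CACGTG or the hypoxia core ACGTG, which occur in 7.81%, 7.86%, 7.15% and 19.6% of all windows.

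Clu encodes clusterin, a secreted chaperone that rises in most forms of tubule injury. Its values in hypoxia replicates 1 to 5 were 42.6, 41.2, 55.9, 63.8 and 97.5 FPKM, and in control replicates 1 to 5 they were 83.8, 83.7, 83.7, 74.3 and 88.6 FPKM. Hypoxia replicates 1 to 4 lay below every control, while replicate 5 was the highest library of all. With all libraries the log2 fold change was -0.53 (SE 0.206, limma adjusted p = 0.120). Without hypoxia replicate 5 it was -0.72 (SE 0.126, adjusted p = 0.00530), in a comparison where 18.4% of all genes passed (7.39% higher, 11% lower). Without replicates 4 and 5, Clu fell by 0.83 on the log2 scale (SE 0.106, adjusted p = 0.00257), with a 95% interval from -1.07 to -0.59. In that reduced comparison the groups did not overlap, as was the case for 21.5% of all 14724 genes (9.73% higher, 11.8% lower).

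**Figure D2:**
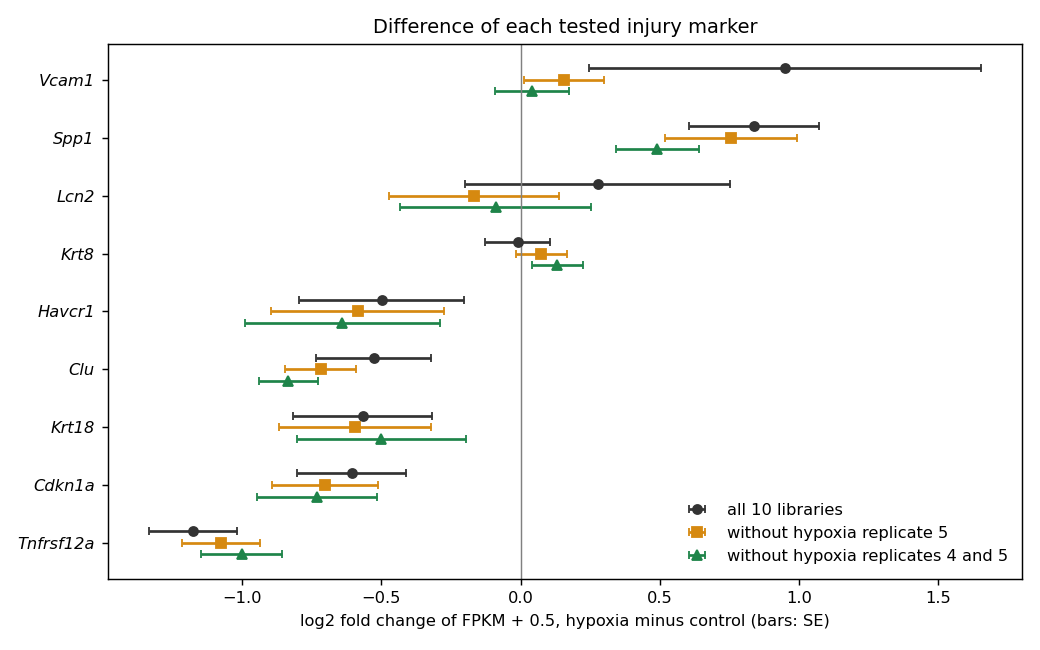
Log2 fold change of FPKM + 0.5, hypoxia minus control, with its SE (x axis) for the 9 tested markers (y axis), with all 10 libraries (circles), without hypoxia replicate 5 (squares) and without hypoxia replicates 4 and 5 (triangles). Tnfrsf12a stays near -1 in each, Clu moves from -0.53 to -0.83, and Vcam1 moves from 0.95 to 0.041.

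Krt8 and Krt18 encode the paired intermediate filament proteins of simple epithelia, which both lie on chromosome 15 and are raised together in stressed tubules. Krt8 was at 56.8, 62.3, 54.9, 49.3 and 41.4 FPKM in hypoxia replicates 1 to 5, against 51.4, 61.2, 49.9, 55.6 and 47.1 FPKM in control replicates 1 to 5. The groups overlapped almost fully, with a log2 fold change of -0.0097 (limma adjusted p = 0.964) and a 95% interval from -0.27 to 0.25. Without hypoxia replicates 4 and 5 it was 0.13 (adjusted p = 0.386). Hypoxia replicate 5 had the lowest Krt8 of all libraries.

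Krt18 gave 8.85, 10.1, 10.6, 7.45 and 10.1 FPKM in hypoxia replicates 1 to 5, against 14.6, 13.3, 8.12, 27.0 and 13.0 FPKM in control replicates 1 to 5. Controls other than replicate 3 lay above all hypoxia libraries, and control replicate 4 stood highest. The log2 fold change was -0.57 (SE 0.249, limma adjusted p = 0.159), and -0.34 without control replicate 4 (adjusted p = 0.225). Without hypoxia replicates 4 and 5 it was -0.50 (SE 0.303, adjusted p = 0.317). Control replicate 4 also held the highest sum of the 6 urothelium markers, 36.0 FPKM, against 3.65 to 11.03 FPKM over the hypoxia libraries and 7.08 to 16.0 FPKM in the other controls. None of these markers was at 0 in all libraries of a group, and their part in the Krt18 values was not tested. A processed pseudogene named Krt8-ps on chromosome 7 was at 0.488 ± 0.268 FPKM in hypoxia and 0.611 ± 0.150 FPKM in controls (SD, n = 5 each). How reads of such near-identical copies were counted is not given in the sources used here, so the Krt8 level carries that uncertainty.

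Among other keratins and their partners, 1 of 11 tested genes was lower and 0 higher, against 7.79% and 3.66% of all genes (median log2 fold change -0.28, and -0.13 without hypoxia replicates 4 and 5). The lower gene was Evpl, which encodes envoplakin, at 4.29 ± 0.773 FPKM in hypoxia and 6.08 ± 0.833 FPKM in controls (SD, n = 5 each; limma adjusted p = 0.0369). It missed the threshold once hypoxia replicates 4 and 5 were left out (0.101) and in 7 of 10 fits without 1 library, up to 0.0910 (without control replicate 2).

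Vcam1 encodes an adhesion molecule that binds the integrin VLA-4 on leukocytes and marks proximal tubule cells that failed to repair. It was at 1.53, 1.37, 2.26, 2.50 and 36.7 FPKM in hypoxia replicates 1 to 5, against 1.72, 1.67, 1.48, 1.64 and 1.63 FPKM in control replicates 1 to 5. Replicate 5 was more than an order of magnitude above every other library, with 5941 reads against 220 to 393 in the other hypoxia libraries and 220 to 265 in the controls. The log2 fold change was 0.95 with all libraries (SE 0.703, limma adjusted p = 0.388). Leaving out hypoxia replicates 4 and 5 gave 0.041 (SE 0.134, adjusted p = 0.871), with a 95% interval from -0.26 to 0.34. The same library held 74.6 FPKM of T cell markers, against 3.46 to 5.32 FPKM in the other hypoxia libraries and 1.599 to 3.84 FPKM in the controls, beside the B cell markers given above. Of these 12 lymphocyte markers, none was at 0 throughout either group, and their part in the Vcam1 value was not tested. Of 6 markers of endothelium, where Vcam1 is also expressed, 0 passed with limma, 0 at an unadjusted p under 0.05 and 0 with voom, and their sums were 65.9 to 76.9 FPKM in hypoxia and 66.5 to 81.0 FPKM in controls. Among all tested genes 11.5% passed with limma, 4451 of 15264 at the unadjusted level and 11.2% with voom.

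Tnfrsf12a encodes Fn14, the receptor of the cytokine TWEAK, which is scarce in healthy tubules and is induced in injured ones, where it signals to NF-κB. Its level was 2.83, 4.93, 3.62, 2.92 and 2.33 FPKM in hypoxia replicates 1 to 5, and 9.09, 8.26, 7.21, 8.06 and 7.20 FPKM in control replicates 1 to 5. The groups did not overlap, which was so for 14.2% of all tested genes (5.68% higher, 8.54% lower). Tnfrsf12a fell by 1.18 on the log2 scale (SE 0.157, limma adjusted p = 0.00219), a fold of 0.442, and ranked 103 of 15264 genes by p. Leaving out hypoxia replicates 4 and 5 gave -1.002 (SE 0.146, adjusted p = 0.00462). The call held in all 10 fits without 1 library, with log2 fold changes from -1.31 to -1.08 and an adjusted p of at most 0.00950 (without control replicate 1). Counts were modest, at 82 to 173 reads per hypoxia library and 231 to 294 per control library. The gene lies on chromosome 17 from 23675445 to 23677468 (ENSMUSG00000023905).

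Of 15 tested genes of the TWEAK and NF-κB pathway, 0 passed with limma in either direction, 3 at an unadjusted p under 0.05 and 0 with voom, with a median log2 fold change of 0.32 that was 0.085 without hypoxia replicates 4 and 5. Among all tested genes 11.5% passed with limma and 11.2% with voom, and 4451 of 15264 had an unadjusted p under 0.05. The same shares apply to the receptor lists below. Tnfsf12, the gene of TWEAK itself and named after its values were seen, was at 5.97 ± 0.796 FPKM in hypoxia and 5.37 ± 0.651 FPKM in controls (SD, n = 5 each; log2 fold change 0.14, limma adjusted p = 0.402). Nfkbia, an inhibitor of NF-κB that is itself a target, was at 27.1 ± 10.7 FPKM in hypoxia and 16.7 ± 4.86 FPKM in controls (adjusted p = 0.0983), with hypoxia replicate 5 at 46.0 FPKM. Rela, an NF-κB subunit, was at 14.5 ± 2.55 FPKM in hypoxia and 13.7 ± 1.52 FPKM in controls (adjusted p = 0.690). Without hypoxia replicates 4 and 5, the chemokine gene Ccl5, named after its values were seen, was the 1 gene past the threshold, at a log2 fold change of 1.04 (adjusted p = 0.0498). That was 1 of 15 tested, against 12.3% of all genes (4.53% higher). Of the 10 receptor genes for osteopontin and VCAM1, 0 passed (1 at an unadjusted p under 0.05, 0 with voom), the most abundant being Itgb1 at 89.3 ± 3.19 FPKM in hypoxia and 95.2 ± 4.02 FPKM in controls (adjusted p = 0.381) and Itgb5 at 38.6 ± 6.38 FPKM in hypoxia and 39.6 ± 2.23 FPKM in controls (adjusted p = 0.792). Of 4 tested receptors for lipocalin 2 and clusterin, 0 passed (1 at an unadjusted p under 0.05, 0 with voom); Lrp2, which encodes the endocytic receptor megalin, was at 138 ± 40.1 FPKM in hypoxia and 144 ± 11.98 FPKM in controls (adjusted p = 0.745). Vldlr, a lipoprotein receptor, passed without hypoxia replicates 4 and 5 (log2 fold change 0.34, adjusted p = 0.0152). It was 1 of 4 tested, against the same 12.3% of all genes.

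**Figure D3:**
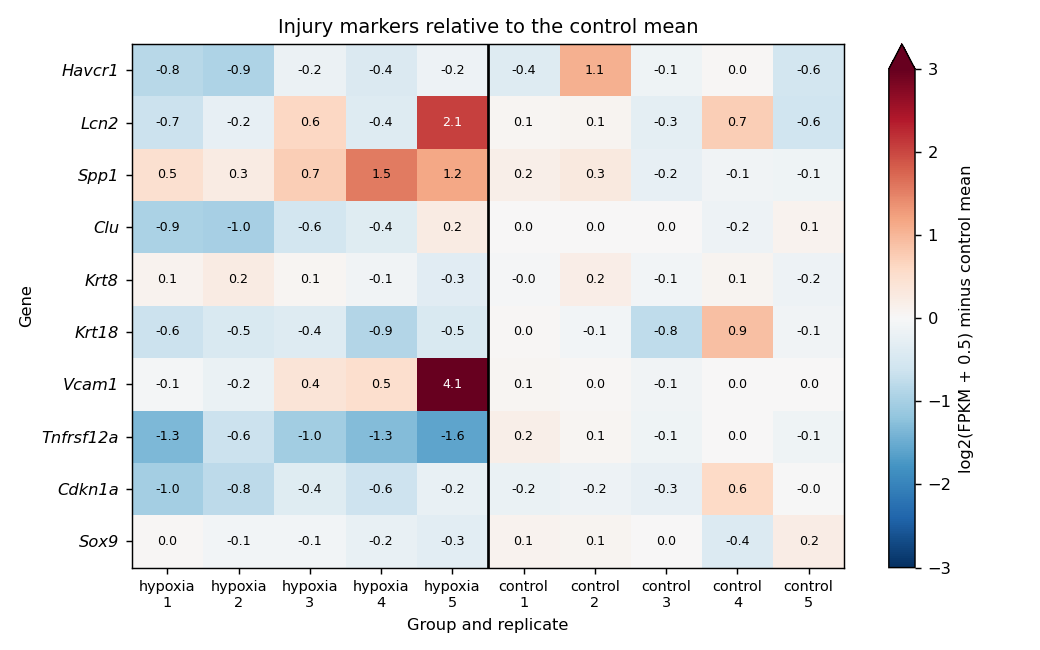
Level of each injury marker (rows) in each library (columns) as log2(FPKM + 0.5) minus the mean of the controls, red above and blue below it; the colour scale ends at 3 and -3, and the printed values are in the same unit. The Tnfrsf12a, Havcr1, Krt18 and Cdkn1a rows are below 0 in all 5 hypoxia libraries, and the Clu row in replicates 1 to 4. Of these rows only Tnfrsf12a has every hypoxia library below every control. The column of hypoxia replicate 5 holds the 2 highest values, for Vcam1 and Lcn2.

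Cdkn1a encodes p21, a cyclin-dependent kinase inhibitor that arrests the cell cycle after damage and is a classic target of p53. It was at 1.35, 1.67, 2.43, 1.97 and 2.72 FPKM in hypoxia replicates 1 to 5, against 2.81, 2.90, 2.66, 5.22 and 3.27 FPKM in control replicates 1 to 5. Hypoxia replicates 1 to 4 lay below every control, and replicate 5 lay just above the lowest. The log2 fold change was -0.61 (SE 0.194, limma adjusted p = 0.0690), and -0.73 without hypoxia replicates 4 and 5 (SE 0.215, adjusted p = 0.0584), so that Cdkn1a missed the threshold in both. Without hypoxia replicate 5 alone it passed, at -0.70 (adjusted p = 0.0308). Control replicate 4, the library with the highest urothelium markers, was also the highest control for Cdkn1a, and without it the log2 fold change was -0.46 (adjusted p = 0.106).

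A list of other p53 genes held p53 targets and Trp53, the gene of p53 itself. Of its 16 tested genes, 3 were lower and 0 higher, against 7.79% and 3.66% of all genes. Their median log2 fold change was -0.12, and -0.15 without hypoxia replicates 4 and 5. Aen, an apoptosis-enhancing nuclease, was at 2.23 ± 0.562 FPKM in hypoxia and 3.78 ± 0.360 FPKM in controls (SD, n = 5 each; limma adjusted p = 0.0120) and kept its call without hypoxia replicates 4 and 5 (adjusted p = 0.00412). Zmat3, an RNA-binding p53 target, was at 2.63 ± 0.232 FPKM in hypoxia and 3.43 ± 0.216 FPKM in controls (adjusted p = 0.0242). Ccng1, cyclin G1, was at 63.6 ± 8.38 FPKM in hypoxia and 82.2 ± 7.30 FPKM in controls (adjusted p = 0.0476). Both lost their calls without that pair of libraries, at an adjusted p of 0.0545 for Zmat3 and 0.0926 for Ccng1, and in 5 and 7 of the 10 fits without 1 library, up to 0.0655 and 0.115, both without control replicate 1. Among 14 tested cyclins, proliferation genes and other kinase inhibitors, Cdkn1c rose, at 11.6 ± 1.90 FPKM in hypoxia and 8.25 ± 1.04 FPKM in controls (adjusted p = 0.0348; 0.0126 without hypoxia replicates 4 and 5). It was the 1 of 14 that was higher, and 0 were lower, against 3.66% and 7.79% of all genes. Without that pair, Ccnd1, the gene of cyclin D1 and named after its values were seen, was also higher (0.72, adjusted p = 0.0260), making 2 of 11 against 4.53% of all genes. Cdkn1c encodes p57, an inhibitor known in podocytes, and its call was lost in 8 of 10 fits without 1 library, up to 0.0841 (without control replicate 2). The median of these 14 was 0.50, and 0.093 over the 11 tested without hypoxia replicates 4 and 5.

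Sox9 encodes a transcription factor that is switched on early in proximal tubule cells that repair an injury. Hypoxia replicates 1 to 5 had 0.276, 0.213, 0.212, 0.150 and 0.106 FPKM, against 0.303, 0.295, 0.259, 0.0665 and 0.378 FPKM in control replicates 1 to 5. These values rest on 8 to 20 reads per hypoxia library and 5 to 26 per control library, and the groups overlapped. Sox9 was below the mean of 0.5 FPKM required for the gene test. A two-sided exact permutation test over 252 regroupings gave a log2 difference of -0.13 with p = 0.333 (smallest possible 0.00794), and -0.038 with p = 0.839 over 56 regroupings without hypoxia replicates 4 and 5 (smallest possible 0.0179). With so few reads, small differences in Sox9 could not be detected. Of 8 tested SOX factors and nephron progenitor genes, 1 was higher and 0 lower, against 3.66% and 7.79% of all genes. Wt1, a transcription factor of nephron progenitors and podocytes, was at 3.56 ± 0.591 FPKM in hypoxia and 1.95 ± 0.120 FPKM in controls (SD, n = 5 each; log2 fold change 0.72, limma adjusted p = 0.00329; 0.70 and 0.00262 without hypoxia replicates 4 and 5).

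Of 29 other injury and failed-repair genes of the tubule tested, 2 were higher and 3 lower with all libraries, against 3.66% and 7.79% of all genes, at a median log2 fold change of 0.012. Once hypoxia replicates 4 and 5 were left out, 2 of 28 were higher and 3 lower, against 4.53% and 7.75%, at a median of -0.077. Il34, a growth factor of macrophages made by injured tubule cells, was at 4.65 ± 1.06 FPKM in hypoxia and 9.42 ± 2.0 FPKM in controls (SD, n = 5 each; log2 fold change -0.95, limma adjusted p = 0.00679). Itgb6, an integrin subunit of injured and distal epithelium, was at 8.76 ± 3.19 FPKM in hypoxia and 17.0 ± 1.91 FPKM in controls (-1.003, adjusted p = 0.0312). It lost its call in 6 of 10 fits without 1 library, up to 0.0753 (without control replicate 1). Without hypoxia replicates 4 and 5 Itgb6 passed, at -0.83 (adjusted p = 0.00262). The higher genes were the fibrinogen chains Fgg and Fgb, with log2 fold changes of 1.72 and 0.83 (adjusted p = 0.00805 and 0.0126), of which Fgg was 1.25 without hypoxia replicates 4 and 5. The third lower gene, Gdf15, a stress-induced cytokine named after its values were seen, was at 2.90 ± 0.263 FPKM in hypoxia and 7.83 ± 4.78 FPKM in controls (-1.12, adjusted p = 0.0474). Gdf15 lost its call without hypoxia replicates 4 and 5 (adjusted p = 0.105), where Hmox1, heme oxygenase 1, also named after its values were seen, was the third lower gene instead (-0.74, adjusted p = 0.00167). Hmox1 with all libraries had a log2 fold change of -0.13 (adjusted p = 0.896).

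Genes of the mature proximal tubule, which fall when tubules are injured, gave 0 of 14 past the threshold with all libraries (median log2 fold change -0.215), with 4 at an unadjusted p under 0.05 and 0 with voom. Over all tested genes 11.5% passed with limma and 11.2% with voom, and 4451 of 15264 had an unadjusted p under 0.05. Slc27a2, a fatty acid transporter, was at 925 ± 171 FPKM in hypoxia and 1004 ± 120 FPKM in controls (SD, n = 5 each; limma adjusted p = 0.585). Slc34a1, the main phosphate transporter, was at 769 ± 218 FPKM in hypoxia and 1009 ± 141 FPKM in controls (adjusted p = 0.227). Leaving out hypoxia replicates 4 and 5 gave a median of -0.014, with Aqp1, a water channel, higher (0.49, adjusted p = 0.0347) and Slc5a2, a glucose transporter, lower (-0.62, adjusted p = 0.0401), both named after their values were seen. In that comparison 4.53% of all genes were higher and 7.75% lower. With all libraries Slc5a2 was at -0.89 (limma adjusted p = 0.0575). Ggt1, also named after its values were seen, was at -0.46 (limma adjusted p = 0.0844). For both, every hypoxia library lay below the lowest control, as was so for 8.54% of all tested genes. The summed level of the 14 genes was 4012 to 4420 FPKM in hypoxia replicates 1 to 3, 3778 and 2253 FPKM in replicates 4 and 5, and 3812 to 4645 FPKM in the controls. Thick ascending limb markers, from a segment where osteopontin is made, summed to 1088 to 1670 FPKM in hypoxia and 1178 to 2203 FPKM in controls. Of these 6, 1 was lower and 0 higher, against 7.79% and 3.66% of all genes. It was Cldn10, a claudin of that segment, at 56.1 ± 11.3 FPKM in hypoxia and 82.7 ± 7.31 FPKM in controls (limma adjusted p = 0.0277). Its call was lost in 5 of 10 fits without 1 library, up to 0.0690 (without control replicate 2). Without hypoxia replicates 4 and 5 Cldn10 passed, at a log2 fold change of -0.37 (adjusted p = 0.0237). Of 8 collecting duct markers 0 passed with limma, 0 at an unadjusted p under 0.05 and 0 with voom, and their sums were 350.0 to 454 FPKM in hypoxia and 295 to 434 FPKM in controls. With hypoxia replicates 4 and 5 left out, Atp6v1b1, a proton pump subunit of intercalated cells named after its values were seen, was higher (log2 fold change 0.26, adjusted p = 0.0202).

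**Figure D4:**
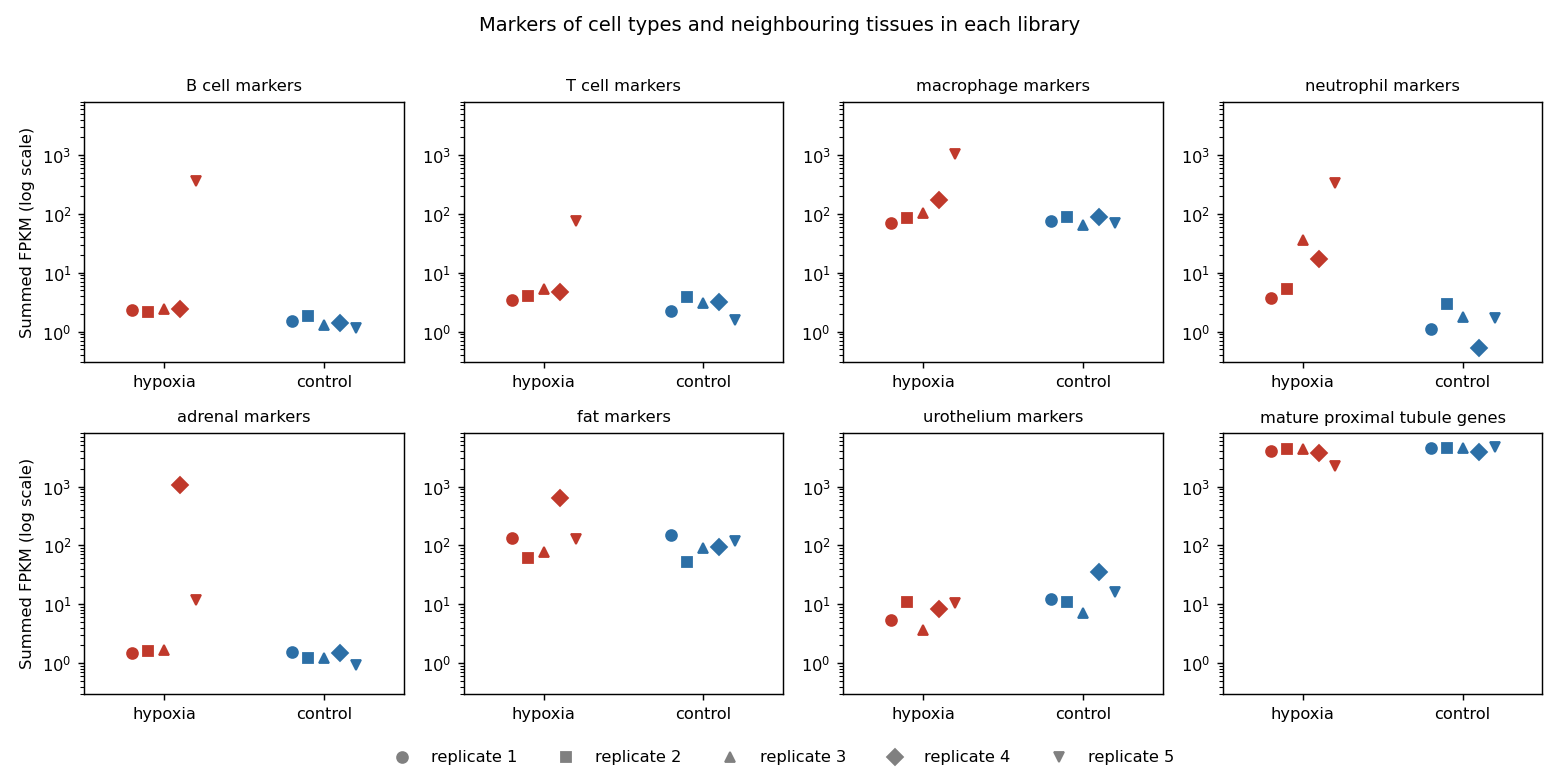
Summed FPKM (y axes, log scale) of markers of 8 cell types or tissues in the 5 hypoxia libraries (red) and 5 control libraries (blue); symbols give the replicate number. Immune cell markers are highest in hypoxia replicate 5, adrenal and fat markers in hypoxia replicate 4, and urothelium markers in control replicate 4.

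The injury markers did not vary as 1 block within the groups. After each group's mean was subtracted, Spearman's rho over the 10 libraries was highest for Spp1 with Clu (0.733) and lowest for Clu with Krt8 (-0.903). The pairs share their libraries, and hypoxia replicate 5 enters each of them, so these are descriptions. Hypoxia replicate 5 had the highest hypoxia value for 5 of the 10 markers (Havcr1, Lcn2, Clu, Vcam1 and Cdkn1a) and the lowest for 3 (Krt8, Tnfrsf12a and Sox9). Control replicate 4 had the highest control value for Lcn2, Krt18 and Cdkn1a. Of 190 other genes in the lists used here, the most alike by the same measure were Atf3, a stress-induced transcription factor, for Cdkn1a (0.939), Rel, an NF-κB subunit, for Vcam1 (0.952), Kcnj1, a potassium channel of the thick ascending limb, for Krt8 (0.927) and Igfbp7 for Tnfrsf12a (0.915). For the others they were Trp53inp1 for Clu (0.867), Bbc3 for Lcn2 (0.855), C1qb for Spp1 (0.842), Ccl2 for Havcr1 (0.770) and Gadd45a for Krt18 (0.770). Each is the highest of 190 values over 10 libraries, a choice that by itself yields high values, so these too are descriptions. Pearson's r was 0.473 for Krt18 with Gadd45a, 0.628 for Spp1 with C1qb and 0.806 to 0.993 for the other pairs named here.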

How the data were processed

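The authors deposited 1 table of FPKM values per gene and library, with gene names, lengths and coordinates. The submitters' processing notes name HISAT2 2.0.5 and hg38, a human build, without stating their roles. The identifiers are from the mouse: 55141 occur in GENCODE's GRCm38 annotation, 99.4% of them at the same coordinates, all 10 markers included, and GRCm38 coordinates are printed. How reads were counted, by strand or with multiple matches, is not given in the sources used here. Multiplying FPKM by gene length, an other deposited value, and dividing by the step that 1 read is worth in each library gave whole reads for 100% of values (tolerance 0.05).

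Tests took genes averaging 0.5 FPKM or more, on log2(FPKM + 0.5), a scale that understates changes of low genes, with limma 3.58.1 in R 4.3.3 (lmFit; robust eBayes with a trend; no covariates; two-sided; Benjamini-Hochberg adjustment over all tested genes; threshold 0.05). Log2 fold changes are hypoxia minus control. Labels gave each library's group and number. They do not tie each library to a separate mouse, so that p-values reflect only spread among these samples, which may be technical. Depth was 16561672 to 17845464 reads per library, and intervals on single reads cover counting error only. No pair of libraries agreed within sampling noise.

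The markers and lists were chosen with earlier results of these data known. Besides the 10 markers, the naming rule took at most 4 genes per list, those past the threshold with the lowest p, or else its 2 most abundant genes. Genes outside this rule are marked as named after their values were seen, apart from those named for likeness, as markers at 0 or for the pseudogene. Alternatives covered pseudocount, filter, scaling, error model, limma voom on recovered reads, a replicate block and omission of libraries. Promoter sequences are from RefSeq, GRCm38.p6. Python 3.11.15 and matplotlib 3.10.9 made the figures.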

Additional observations from a re-analysis of the deposited data

Results flagged for a closer look

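Each value given here lay apart from the other 4 libraries of its group by more than the 95% limit of Dixon's test allows. Of 116 groups of 5 values looked at, 29 values did so. The groups share the same 10 libraries, and marker sums contain genes that are also listed singly. The count was therefore not compared with chance. Hypoxia replicate 5 gave 16 of them, control replicate 4 gave 5, hypoxia replicate 4 gave 4, and control replicates 1 and 2 gave 2 each.

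Among the injury markers, hypoxia replicate 5 was apart for Vcam1 at 36.7 FPKM (1.37 to 2.50 FPKM in the other hypoxia libraries) and for Lcn2 at 9.29 FPKM (1.00 to 3.14 FPKM). Control replicate 2 was apart for Havcr1 at 3.35 FPKM (0.755 to 1.38 FPKM in the other controls), and control replicate 4 for Cdkn1a at 5.22 FPKM (2.66 to 3.27 FPKM).

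Among other genes, hypoxia replicate 5 was apart for Nfkbia at 46.0 FPKM, S100a8 at 101 FPKM, Lyz2 at 756 FPKM, C1qb at 92.1 FPKM, Cd79b at 143 FPKM, Cd79a at 106 FPKM, Trac at 37.4 FPKM and Cd8a at 9.73 FPKM, all high, and for Slc34a1, low at 398 FPKM. Its summed markers were high for neutrophils at 339 FPKM, macrophages at 1059 FPKM, B cells at 356 FPKM, T cells at 74.6 FPKM and the pancreas at 50.3 FPKM. The pancreas sum was 32.4 to 49.6 FPKM in the controls, so it stood apart only within the hypoxia group. Its member Cela1 was lowest in this library, at 17.7 FPKM. Hypoxia replicate 4 was high for Hsd3b1 at 372 FPKM and Cyp21a1 at 246 FPKM, for summed adrenal markers at 1060.0 FPKM and for summed fat markers at 627 FPKM. Control replicate 4 was high for the urothelium genes Upk1a at 11.3 FPKM and Upk3a at 11.4 FPKM, and low for Ccng1 at 69.5 FPKM and for summed mature proximal tubule genes at 3812 FPKM. Control replicate 2 was high for Il34 at 12.9 FPKM. Control replicate 1 was listed at 0.0966 FPKM for Hsd3b1 and 0.0837 FPKM for Cyp21a1 while the other controls were at 0. With the others at 0, any value above 0 lies past this limit by construction.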

How the results depend on the processing

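Over all genes 1748 passed with the settings reported, 559 higher and 1189 lower. The count was 966 without a filter on low values, 3253 with array quality weights, 999 with a replicate block, and 824 to 2724 when 1 library was left out. The split was 782 higher and 927 lower with limma voom on recovered reads, scaled to total reads, and 1309 and 1944 with array quality weights. Of the injury markers 2 passed as reported, 1 without the filter, 4 with array quality weights (Spp1 higher; Clu, Tnfrsf12a and Cdkn1a lower), 1 with the replicate block, and 1 to 3 when 1 library was left out. Of the other list genes 15 passed, against 6 without the filter, 32 with array quality weights, 9 with the replicate block and 7 to 29 when 1 library was left out. Median-of-ratios rescaling gave the same 1748 calls, but it left the fit almost unchanged. The median log2 fold change of all tested genes was 0.012 in both, and 4450 genes had an unadjusted p under 0.05, against 4451 as reported. The deposited values were already scaled to library sizes other than the reads assigned to genes. This rescaling therefore cannot show how far the calls depend on scaling.

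The Spp1 log2 fold change lost its call without the filter (adjusted p = 0.0885) and with the replicate block (adjusted p = 0.107); Tnfrsf12a kept its call in every setting run. The labels do not say whether replicate numbers pair the libraries. The correlation of same-numbered deviations was -0.0771 to 0.0861, and 2 of 5 hypoxia libraries correlated best with their own number. So few correlations, each taken over all tested genes, cannot decide whether the libraries are paired. No marker that passed in any setting reversed its direction. Depth limits Sox9, Havcr1 and Lcn2 most. The causes of these shifts were not tested.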

Other observations

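Krt8 and Krt18 proteins pair in equal parts, and their transcript levels can be set side by side per length. The ratio of Krt8 to Krt18 FPKM was 6.41, 6.16, 5.19, 6.62 and 4.10 in hypoxia replicates 1 to 5, against 3.52, 4.61, 6.15, 2.06 and 3.62 in control replicates 1 to 5. The groups overlapped, and the comparison was noticed in the data and not tested.

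Ucp1, the uncoupling protein of brown fat, was at 0.0340 ± 0.0411 FPKM in hypoxia and 7.30 ± 5.44 FPKM in controls (SD, n = 5 each; limma adjusted p = 0.0244), while summed fat markers were 60.9 to 627 FPKM in hypoxia and 53.05 to 150.2 FPKM in controls. It missed the threshold once hypoxia replicates 4 and 5 were left out (0.0599) and in 5 of 10 fits without 1 library, up to 0.0683 (without control replicate 1). Cela1, an elastase, was at 25.5 ± 5.04 FPKM in hypoxia and 42.3 ± 7.17 FPKM in controls (adjusted p = 0.0194; 0.0222 without hypoxia replicates 4 and 5; 0.0564, past the threshold no longer, without control replicate 1).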
